A study of Mus musculus with 72 samples.

Results

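The genes described here are 29 genes of sterol and fatty acid synthesis, of 46078 genes in the count files. They comprise 17 enzymes of the sterol pathway (Hmgcs1, Mvk, Pmvk, Mvd, Idi1, Fdps, Fdft1, Sqle, Lss, Cyp51, Tm7sf2, Msmo1, Nsdhl, Hsd17b7, Ebp, Sc5d and Dhcr7), 3 genes that control or carry sterols (Srebf2, Insig1 and Stard4), 8 enzymes of fatty acid synthesis and desaturation (Acly, Acaca, Fasn, Scd1, Scd2, Elovl6, Fads1 and Fads2) and the transcription factor gene Srebf1. They were listed by name, with earlier results of these data known, and all 29 were tested. RNA was sequenced from the interfollicular epidermis, the sheet of skin between the hair follicles, of 72 female C57BL/6 mice aged 8 weeks. The mice were kept in 12 h of light and 12 h of darkness at 22 °C with free access to chow. Each of 3 genotypes was sampled at 6 time points with 4 mice each, and the design asks which daily changes of epidermal transcripts need clocks outside the epidermis.

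The wild-type controls (WT) carried K14-Cre, the knockout (KO) carried Bmal1-stopFL, and the third genotype (RE) carried Bmal1-stopFL together with K14-Cre. Bmal1, written Arntl in the files, encodes an activator of the circadian clock, and the stop allele blocks it until Cre removes the stop. The keratin 14 promoter that drives Cre acts in basal keratinocytes and in the epithelium of hair follicles and sebaceous glands, so melanocytes and immune cells of the same RE samples keep the stop. Cre itself was present in WT and RE and absent from KO, and its part in a difference from KO cannot be told apart from that of Bmal1. The titles of the RE samples read "RE KO", while their genotype field and code give RE, which was used. The clock hour of each time point is not given in the sources used here.

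Sterol synthesis builds cholesterol from acetyl-CoA through mevalonate, farnesyl pyrophosphate, squalene and lanosterol. When a cell's sterol level is low, the transcription factor SREBP2, encoded by Srebf2, is released from the endoplasmic reticulum and raises the genes of this pathway, while INSIG1 holds it back. SREBP1, encoded by Srebf1, acts more on fatty acid synthesis, in which ACLY supplies acetyl-CoA, ACACA and FASN build the chain, ELOVL6 lengthens it, and SCD1, SCD2, FADS1 and FADS2 place double bonds. In the epidermis cholesterol and fatty acids go into the lamellar lipids of the barrier, and sebaceous glands make large amounts of both.

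Promoter sequences were at hand for 22 of the 29 genes, in 27 promoters taken from RefSeq on GRCm38.p6. Fdft1, Fdps, Sqle, Scd1, Scd2, Stard4 and Fads1 are named only. Each promoter ran from 250 bases before to 50 bases after the start, and motifs were searched on both strands. The NF-Y box CCAAT, bound by a factor that acts beside SREBPs, was found in 19 of the 22 genes and in 41.1% of the 27025 genes in the table. The GC box GGGCGG was found in 18 of the 22 genes and in 38.2% of all. The E-box CACGTG, the letters that BMAL1 with its partner CLOCK can bind, was found in 4 of the 22 genes (Sc5d, Insig1, Hsd17b7 and Dhcr7) and in 8.09% of all. For the sterol regulatory element, to which SREBPs bind, a single fixed sequence was searched. A full match to it was found in 0 of the 22 genes and in 0.27% of all. Partial matches were not counted. With a full match this rare among all genes, the count of 0 does not show that these promoters lack a site for SREBPs. All matches counted here are matches of letters and not sites shown to be bound.

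The 250 bases before the start are shown for 4 sterol genes, on the gene's own strand, with the NF-Y box (CCAAT or ATTGG) and the E-box (CACGTG) in capitals. Hmgcs1 (chr13:119690101-119690350, plus strand) is the entry to the pathway. Mvk (chr5:114444019-114444268, plus strand) held the most NF-Y boxes of the 22 genes. Lss (chr10:76531355-76531604, plus strand) and Sc5d (chr9:42264301-42264550, minus strand) are the sterol genes whose transcripts differed from KO in both other genotypes, and Sc5d is the one of these 4 with an E-box in its promoter.
Hmgcs1: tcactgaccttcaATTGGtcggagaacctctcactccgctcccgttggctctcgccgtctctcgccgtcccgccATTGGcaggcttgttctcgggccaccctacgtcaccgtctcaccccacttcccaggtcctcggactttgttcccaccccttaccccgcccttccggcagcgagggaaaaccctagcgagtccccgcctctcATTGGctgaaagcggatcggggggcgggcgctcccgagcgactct
Mvk: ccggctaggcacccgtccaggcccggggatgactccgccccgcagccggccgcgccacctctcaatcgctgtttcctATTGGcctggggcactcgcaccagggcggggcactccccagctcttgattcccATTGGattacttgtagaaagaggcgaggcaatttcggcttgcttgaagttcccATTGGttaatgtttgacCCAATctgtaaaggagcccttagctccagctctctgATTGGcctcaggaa
Lss: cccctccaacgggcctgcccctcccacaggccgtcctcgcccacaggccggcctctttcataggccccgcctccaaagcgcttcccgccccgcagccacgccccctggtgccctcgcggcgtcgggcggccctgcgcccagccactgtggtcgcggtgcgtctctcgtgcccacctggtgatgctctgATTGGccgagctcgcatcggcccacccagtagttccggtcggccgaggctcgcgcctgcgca
Sc5d: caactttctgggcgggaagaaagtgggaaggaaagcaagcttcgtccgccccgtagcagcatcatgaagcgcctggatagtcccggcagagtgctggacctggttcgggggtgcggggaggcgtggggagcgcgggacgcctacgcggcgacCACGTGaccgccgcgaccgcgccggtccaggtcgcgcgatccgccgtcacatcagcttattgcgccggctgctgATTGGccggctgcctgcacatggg

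**Figure D1:**
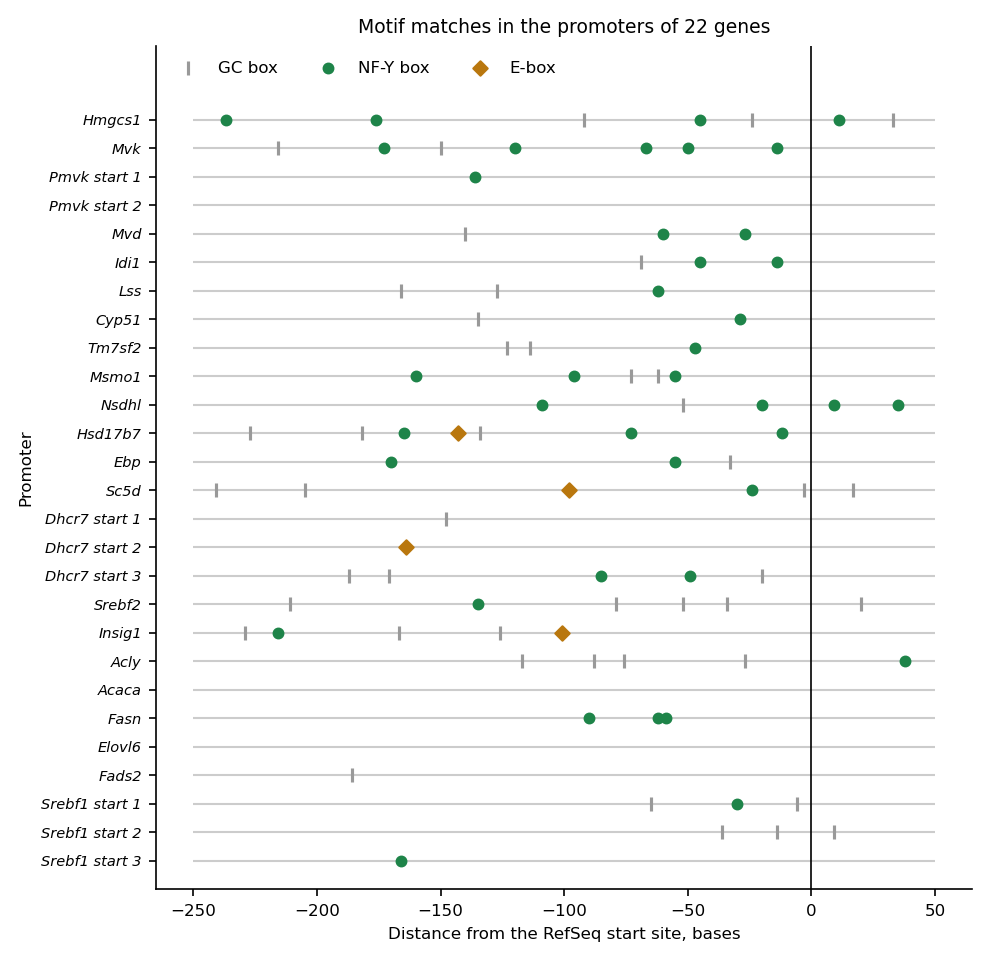
Motif matches in the 27 RefSeq promoters of 22 genes, one row per promoter, with the distance from the start in bases on the horizontal axis. NF-Y boxes mark 19 of the 22 genes, GC boxes 18 and E-boxes 4.

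Before the results, 5 libraries have to be set apart. In WT at time point 5, replicate 4, and in RE at time point 5, replicate 3, the basal keratin Krt14 stood at 274 and 343 counts scaled to a library of 1e6 (CPM), against at least 2514 CPM in the other 70 libraries. Genes outside this list and the clock genes that separate KO from WT at other times were combined into a score of 0 for WT and 1 for KO. KO at time point 3, replicate 1, scored 0.149 and the remaining 23 KO libraries 0.851 to 1.16. A like score for RE against WT placed WT at time point 3, replicate 2, at 1.00 and RE at time point 3, replicate 2, at −0.175, where 22 other WT libraries scored −0.20 to 0.70 and 22 other RE libraries 0.43 to 1.32. The 2 libraries with little Krt14 also stood off these scores: that of WT lay at 1.08 on the first, within the KO range, and at 3.21 on the other, and that of RE at 4.25. The counts and the main differences are therefore also given without these 5 libraries. The ratio of 2 mitochondrial transcripts also divided the libraries into 2 sets with a gap between them, of 40 and 32 libraries. The first set held time points 1 to 4 of WT and 1 to 3 of KO and RE. No label names a batch, so set and time point can be told apart only in part. Gene reads ranged from 2.96e+07 to 4.95e+07 per library. Arntl had a median of 77.2 CPM in WT, 31.7 CPM in KO and 70.4 CPM in RE (24 libraries each).

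Per kilobase of exon, the median level in WT was highest for Scd1 (133 CPM per kb) and for Hmgcs1, which makes the precursor of mevalonate (104 CPM per kb). Acly followed at 65.8, Fasn at 37.0 and Idi1, which isomerises isopentenyl pyrophosphate, at 33.8 CPM per kb. The lowest were Fdft1, the squalene synthase, at 2.52, Fads1 at 0.721 and Fads2 at 0.155 CPM per kb. All 29 genes were thus detected, with a span of levels that covers both highly and barely expressed members.

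In KO epidermis the sterol pathway was higher than in WT as a group. Of the 29 genes, 18 rose and 0 fell at an adjusted p under 0.05 by edgeR (21 and 0 at an unadjusted p under 0.05, which 14.2% and 17.7% of all genes passed), where 8.72% of the 18515 genes tested rose and 11.1% fell. The 18 were 14 of the 17 sterol enzymes, Insig1, and the fatty acid genes Acly, Acaca and Scd2. The median difference between the means over the day was 0.33 (log2) over the 20 sterol genes and 0.08 over the 9 fatty acid genes, beside −0.01 over all genes. Without the 5 libraries, 21 genes rose, where 13.8% of all genes rose, and the added genes were Ebp, Srebf2 and Stard4. The 18 then had differences from 0.24 (Acaca) to 1.39 (Scd2). The 8 genes not called either way had differences of 0.13 (Fdft1), 0.08 (Hsd17b7), 0.09 (Fasn), 0.09 (Srebf1), 0.19 (Elovl6), −0.10 (Scd1), −0.22 (Fads1) and −0.36 (Fads2). With a term for the library set, 18 rose, where 7.41% of all genes rose, with Fdft1 and Srebf2 in place of Tm7sf2 and Insig1. Over the 5 time points at which all genotypes fell in the same library set, 19 rose, where 6.69% of all genes rose. All adjusted p-values are from edgeR's quasi-likelihood test with Benjamini-Hochberg adjustment over all genes tested. They set a difference against the spread of mice around a fitted daily curve. That spread also holds any misfit of the curve and any shift between library sets. In RNA of a whole tissue, fewer cells of a type and less RNA per cell cannot be told apart.

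**Figure D2:**
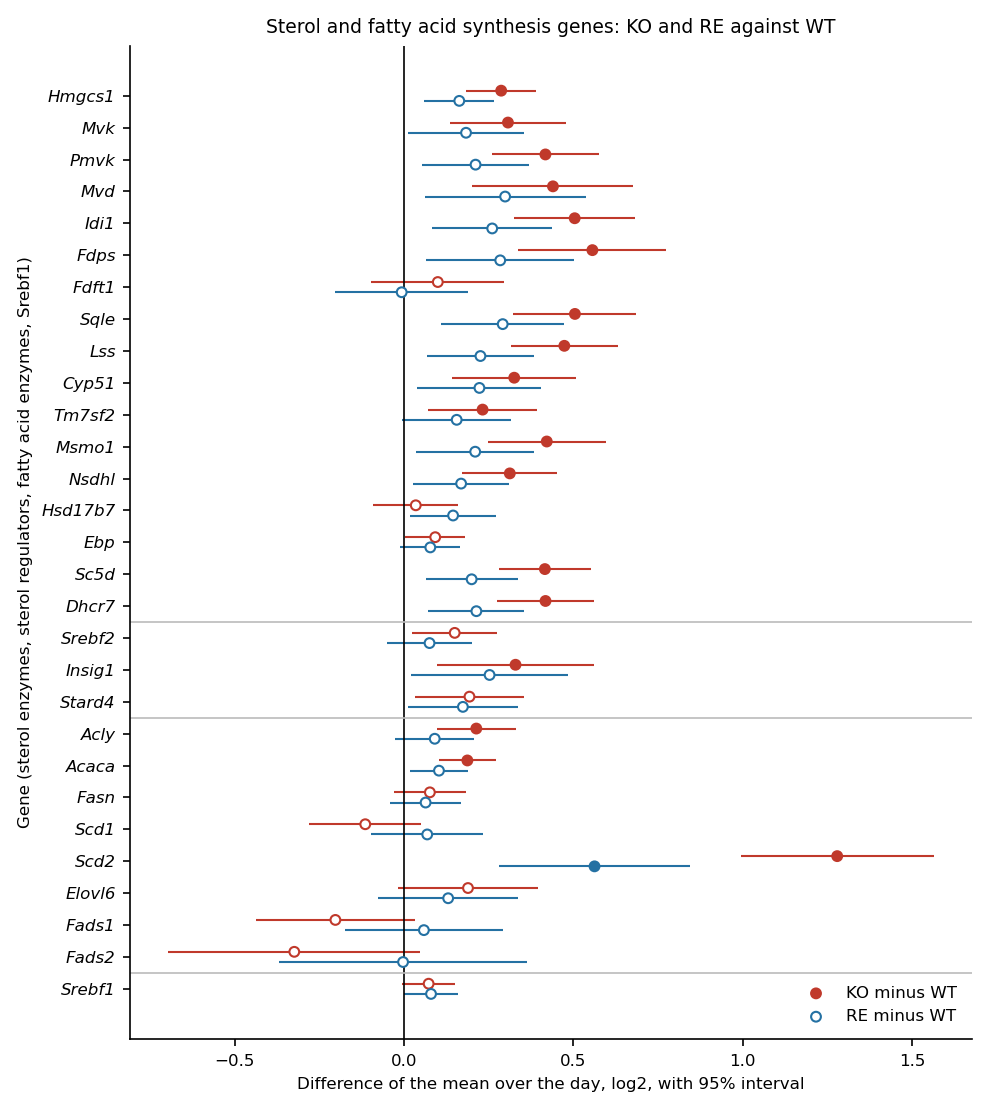
Difference of the mean over the day in log2 units, KO minus WT in red and RE minus WT in blue, with 95% confidence intervals, one row per gene, grouped by role. Filled points have an adjusted p under 0.05: 18 genes in KO and 1, Scd2, in RE.

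The largest difference was in Scd2, a stearoyl-CoA desaturase (ENSMUSG00000025203, chromosome 19, 44293674 to 44306864, GRCm38). The 24 WT libraries ranged from 26.3 to 91.9 CPM with a median of 51.9, and the 24 KO libraries from 64.6 to 198 CPM with a median of 124. At each of the 6 time points all 4 KO libraries lay above all 4 WT libraries. The highest KO time point was the fifth, with 198, 161, 133 and 126 CPM, and the lowest the third, with 64.6, 94.6, 146 and 115 CPM. In WT the highest was the first, with 71.5, 68.2, 65.0 and 76.0 CPM, and the lowest the fourth, with 32.6, 37.2, 52.7 and 39.1 CPM. The lowest KO library, at time point 3, was the one with a score near that of WT. The difference was 1.28 ± 0.14 (log2, SE; 2.43-fold; 95% interval 0.99 to 1.56; adjusted p = 2.71e-10), and 1.39 without the 5 libraries, where the highest WT library (80.6 CPM) lay below the lowest KO library (80.8 CPM). That gap comes from the removal, since the 5 hold the highest WT library (91.9 CPM) and the lowest KO library (64.6 CPM) of Scd2. Scd2 and Scd1 share a stretch of 623 bases at 95.5% identity, where the counting could divide reads between them.

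Scd1, the paralog with the highest level per length, did not pass the test. Its libraries ranged from 464 to 1053 CPM in WT (median 653) and from 461 to 1067 CPM in KO (median 615), so that the groups overlapped almost whole. The difference was −0.11 ± 0.08 (log2; 95% interval −0.28 to 0.05; adjusted p = 0.364), and only 9 of 24 KO libraries lay above the WT median.

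Among the first enzymes of the pathway, from acetyl-CoA units to farnesyl pyrophosphate, all 6 rose in KO. Hmgcs1 rose 1.22-fold (0.29 ± 0.05, adjusted p = 3.27e-05), with medians of 477 CPM in WT and 580 CPM in KO. The kinases Mvk and Pmvk rose 1.24-fold and 1.34-fold, and the decarboxylase Mvd 1.36-fold. Idi1 and the farnesyl pyrophosphate synthase Fdps rose 1.42-fold and 1.47-fold, Fdps by 0.56 ± 0.11 (log2). All 24 KO libraries lay above the WT median for Hmgcs1, Mvk, Pmvk, Idi1 and Fdps, and 22 for Mvd. Fdps shares its sequence with 6 near copies and Idi1 with 2 processed pseudogenes at 95% identity or more, so their counts are less certain. The RE medians of these genes lay between the other 2 for Hmgcs1 (524 CPM), Mvk (74.4 beside 64.8 in WT and 87.8 in KO), Pmvk (52.4 beside 44.7 and 60.2), Mvd (29.6 beside 23.7 and 34.9), Idi1 (133 beside 119 and 170) and Fdps (13.0 beside 11.03 and 16.5).

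Of the enzymes that form squalene and oxidise it, Sqle was called and Fdft1 was not, and the difference between them was not tested. Fdft1, which joins 2 farnesyl units (ENSMUSG00000021273, chromosome 14, 63145150 to 63179578), had medians of 10.7 CPM in WT and 9.79 CPM in KO, and its mean difference was 0.10 ± 0.10 (adjusted p = 0.528, not called). Within each library set its KO median was the higher, at 12.9 beside 11.5 CPM in the first set and 6.86 beside 5.37 CPM in the other. With a term for the library set Fdft1 was called higher in KO, as given below. Sqle, the squalene epoxidase, rose 1.42-fold (0.50 ± 0.09, adjusted p = 3.35e-05), from a WT median of 114 to a KO median of 171 CPM. WT libraries ranged from 86.8 to 307 CPM, KO libraries from 135 to 201 CPM and RE libraries from 91.7 to 341 CPM, and the highest of WT and of RE were those with little Krt14. Without the 5 libraries the highest WT value was 135 CPM, just under the lowest of KO. At 5 of 6 time points all 4 KO libraries of Sqle lay above all 4 of WT.

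Lss, the lanosterol synthase (ENSMUSG00000033105, chromosome 10, 76531588 to 76557138), ranged from 57.4 to 145 CPM in WT (median 76.2) and from 79.3 to 136 CPM in KO (median 106). The KO libraries at its highest time point, the fifth, stood at 118, 117, 124 and 115 CPM, and the WT libraries there at 72.7, 65.5, 80.8 and 145 CPM. The WT value of 145 came from the replicate with little Krt14, and without the 5 libraries the highest WT value of Lss was 96.1 CPM. Lss rose by 0.47 ± 0.08 (1.39-fold, adjusted p = 8.53e-06), and by 0.53 without the 5 libraries. An antisense gene shares 381 exon bases with Lss, and the strand setting of the counting is not given in the sources used here.

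The enzymes that turn lanosterol into cholesterol rose in 6 of 8 cases. Cyp51, the lanosterol demethylase, rose 1.25-fold, the reductase Tm7sf2 1.17-fold, the methyl sterol oxidase Msmo1 1.34-fold and the dehydrogenase Nsdhl 1.24-fold. Hsd17b7, the ketoreductase that works with Msmo1 and Nsdhl, had a difference of 0.03 ± 0.06 (adjusted p = 0.756). Ebp, which shifts the double bond of the sterol ring (ENSMUSG00000031168, chromosome X, 8185329 to 8193512), had medians of 37.3 CPM in WT and 41.2 CPM in KO. Its difference was 0.09 ± 0.05 (adjusted p = 0.149) and passed the test without the 5 libraries (0.12, adjusted p = 0.00532).

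Sc5d and Dhcr7 act last, on the double bonds of the ring. Sc5d, the sterol C5-desaturase (ENSMUSG00000032018, chromosome 9, 42251595 to 42264256), ranged from 42.9 to 89.1 CPM in WT (median 58.8) and from 62.6 to 98.6 CPM in KO (median 77.2). At its lowest time point, the fourth, WT stood at 50.6, 56.9, 47.4 and 45.3 CPM and KO at 71.1, 80.8, 79.8 and 69.3 CPM, with no overlap. At its highest, the first, WT stood at 78.0, 69.0, 72.7 and 61.9 CPM and KO at 86.5, 86.6, 98.6 and 62.8 CPM, and the lowest KO library lay among the WT libraries. The rise was 0.42 ± 0.07 (1.33-fold; 95% interval 0.28 to 0.55; adjusted p = 5.83e-06), and 0.48 without the 5 libraries.

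Dhcr7, the 7-dehydrocholesterol reductase (ENSMUSG00000058454, chromosome 7, 143823145 to 143848410), ranged from 56.7 to 143 CPM in WT (median 68.7) and from 69.3 to 121 CPM in KO (median 95.9). KO was highest at time point 1, with 121, 101, 102 and 95.9 CPM, and lowest at time point 3, with 69.3, 74.9, 89.7 and 95.8 CPM. WT stood at 67.8, 60.6, 56.7 and 59.1 CPM at its lowest, the third, and at 78.6, 61.2, 80.9 and 143 CPM at its highest, the fifth. All 24 KO libraries lay above the WT median. The rise was 0.42 ± 0.07 (1.34-fold; 95% interval 0.28 to 0.56; adjusted p = 1.18e-05), and 0.48 without the 5 libraries.

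**Figure D3:**
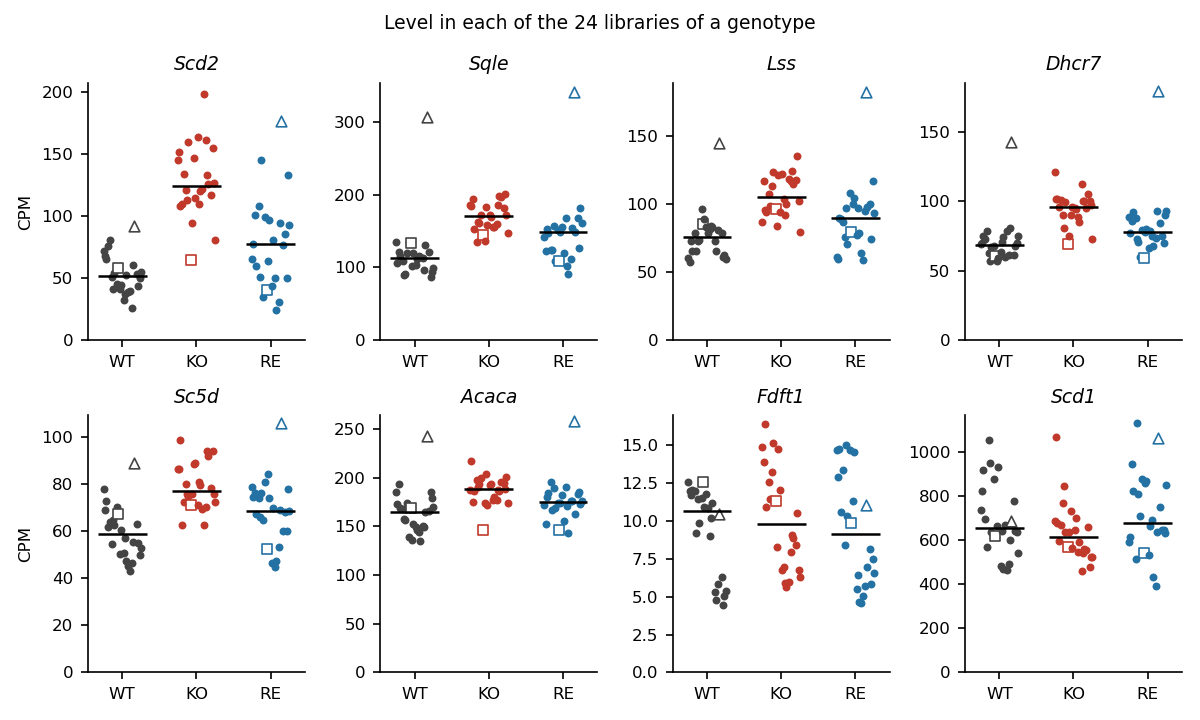
CPM of 8 genes in each of the 72 libraries, in order of time point within a genotype; the line is the median. Open triangles are the 2 libraries with little Krt14 and open squares the 3 libraries at time point 3 that lie apart from their label; for Scd2, Sqle, Lss, Dhcr7 and Sc5d the KO median lies above those of WT and RE.

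Of the 3 genes that control or carry sterols, Insig1 rose in KO. Insig1 (ENSMUSG00000045294, chromosome 5, 28071363 to 28078662) ranged from 7.77 to 35.5 CPM in WT (median 17.6) and from 13.3 to 50.5 CPM in KO (median 21.9). The ranges overlapped, and KO was higher at 4 of 6 time points. The difference was 0.33 ± 0.12 (1.26-fold, adjusted p = 0.0386). It missed the threshold without KO time point 3, replicate 1 (adjusted p = 0.0512), and with a term for the library set (adjusted p = 0.0545), and passed it without the 5 libraries (0.35, adjusted p = 0.0214). Srebf2 had medians of 219 CPM in WT and 254 CPM in KO (0.15 ± 0.06, adjusted p = 0.0901), and Stard4, a carrier of cholesterol within the cell, a difference of 0.19 ± 0.08 (adjusted p = 0.0908). Without the 5 libraries both passed, with adjusted p-values of 0.0145 and 0.00269.

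Fatty acid genes divided. Acly rose 1.16-fold (0.21 ± 0.06, adjusted p = 0.00665), with medians of 348 CPM in WT, 421 CPM in KO and 374 CPM in RE. All 24 KO libraries of Acly lay above the WT median, and at 5 of 6 time points all 4 KO libraries lay above all 4 of WT. Acaca, the acetyl-CoA carboxylase (ENSMUSG00000020532, chromosome 11, 84129672 to 84401651), ranged from 135 to 242 CPM in WT (median 165) and from 146 to 217 CPM in KO (median 188), and 23 of 24 KO libraries lay above the WT median. It rose by 0.19 ± 0.04 (1.14-fold; 95% interval 0.10 to 0.27; adjusted p = 0.000923), and by 0.24 without the 5 libraries. A processed pseudogene copies Acaca at 99.2% identity over 6118 bases.

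The other fatty acid genes did not pass the test between KO and WT. Fasn, the fatty acid synthase, had medians of 405, 434 and 425 CPM in WT, KO and RE and differed by 0.08 ± 0.05 (adjusted p = 0.343), and Srebf1, with medians of 162, 171 and 172 CPM, by 0.07 ± 0.04 (adjusted p = 0.207). Elovl6 (ENSMUSG00000041220, chromosome 3, 129532355 to 129638495) ranged from 101 to 225 CPM in WT and from 110 to 360 CPM in KO, with a difference of 0.19 ± 0.11 (95% interval −0.02 to 0.39; adjusted p = 0.21). KO was highest at time point 1, with 241, 360, 179 and 168 CPM, and lowest at time point 5, with 117, 141, 129 and 136 CPM, while the WT groups at its highest and lowest, the first and the sixth, overlapped. Fads1 and Fads2, at medians of 3.10 and 0.381 CPM in KO, had differences of −0.20 ± 0.12 and −0.32 ± 0.19, with adjusted p-values of 0.241 and 0.236. Of the 9 fatty acid genes, the 3 with a value below 0 were Scd1, Fads1 and Fads2, all desaturases, while the desaturase Scd2 had the largest rise.

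Markers of other cells moved between the same genotypes. Of 8 tested markers of spinous and granular keratinocytes, the differentiated layers of the epidermis, 5 rose and 1 fell in KO, and their summed level had a median of 18491 CPM in WT (14076 to 48812), 24578 CPM in KO (17842 to 27775) and 20610 CPM in RE (16897 to 56021). Flg was at or near 0 in all. Krt1 rose by 0.47 ± 0.09 (log2, adjusted p = 2.88e-05). Of 13 tested sebaceous gland markers, 6 fell and 0 rose in KO, although their sum had medians of 1218 CPM in WT (1007 to 2755), 1339 CPM in KO (1050 to 1852) and 1284 CPM in RE (773 to 2577). Basal markers were called in 0 of 7 cases by edgeR (1 at an unadjusted p under 0.05), with summed medians of 25545, 25740 and 24382 CPM. Of 12 hair follicle markers 6 fell, and their sums had medians of 546, 558 and 510 CPM. Adipocyte markers were low, with summed medians of 23.1, 17.2 and 22.4 CPM, and 2 of 3 tested fell in KO. Of 6 melanocyte markers 4 fell, of 6 immune markers 1 fell, and fibroblast, skeletal muscle and endothelial markers, with medians of at most 12.2 CPM in sum, had 0 calls by edgeR and 0 at an unadjusted p under 0.05. With the 5 libraries left out, 6 spinous and granular markers rose and 1 fell, 3 of 7 basal markers and 7 of 12 hair follicle markers fell, and of the sebaceous markers 1 rose and 6 fell. In RE minus KO, 5 of 13 sebaceous, 4 of 12 hair follicle, 2 of 3 adipocyte, 2 of 6 fibroblast, 2 of 5 skeletal muscle and 1 of 6 immune markers rose and none of these lists had a gene that fell, while of the spinous and granular markers 1 rose and 1 fell. With them left out, 5 spinous and granular markers fell in RE relative to KO and 1 rose, and 0 fibroblast markers were called. In RE minus WT, Krt1 and the fibroblast gene Col3a1 were the markers called, both higher, and with the 5 libraries left out 6 of 8 spinous and granular markers rose. Over all genes, 8.72% rose and 11.1% fell in KO, and 6.79% rose and 4.86% fell in RE minus KO. Without the 5 libraries these shares were 13.8% and 14.5% in KO, and 9.27% and 8.3% in RE minus KO. In RE minus WT 0.292% of all genes rose, and 1.88% without the 5 libraries. The part of these cell types in the sterol differences was not tested.

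In the library with little Krt14 of each of WT and RE, sterol genes and several marker sums stood apart. A link between them was not tested. In WT time point 5, replicate 4, all 17 sterol enzymes, and 27 of the 29 genes, stood above the other 3 libraries of the group, with a median ratio of 1.94 to their mean. In RE time point 5, replicate 3, all 17, and 26 of the 29, did so, with a median ratio of 1.84. How many of all genes did so was not counted, so these counts are not shown to be particular to the list. Their spinous and granular sums, 48812 and 56021 CPM, were the highest of all 72 libraries, their basal sums, 5716 and 3686 CPM, the lowest, and their sebaceous sums, 2755 and 2577 CPM, the highest. Their fibroblast sums, 32.8 and 145 CPM, were also the highest of all. Fads1 and Fads2 were the 2 genes below the other 3 libraries in both. The TMM factors that scale library size were 0.777 and 0.798 in these 2 libraries, against 1.03 to 1.05 in the others of their groups. A lower factor raises every CPM of a library and is part of the ratios above.

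**Figure D4:**
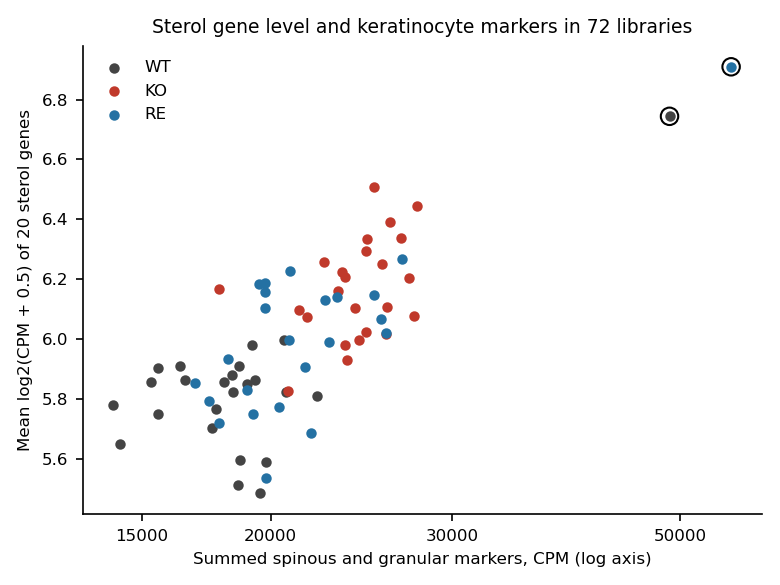
Mean log2(CPM + 0.5) of the 20 sterol genes in each library (vertical axis) against the summed CPM of spinous and granular markers (horizontal log axis), by genotype. The 2 circled libraries are those with little Krt14, at 48812 and 56021 CPM and mean levels of 6.74 and 6.91.

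In RE, whose stop allele Cre can remove, the fitted mean lay between those of WT and KO for 24 of the 29 genes and for 18 of the 20 sterol genes. The like share over all genes was not counted, so the count is not shown to be particular to these genes. Comparisons of RE with WT and of KO with WT share the WT libraries, and their values are given side by side. In RE minus WT, 1 of the 29 genes, Scd2, rose and 0 fell by edgeR, where 0.292% of all genes rose and 0.335% fell. At an unadjusted p under 0.05, 18 were higher and 0 lower, where 5.92% of all genes were higher and 5.61% lower. DESeq2 also called 1, where 90 of 18515 genes were higher, and limma-voom 0, where 43 were. The median difference was 0.20 over the 20 sterol genes and 0.08 over the 9 fatty acid genes, beside 0.00 over all genes. Without the 5 libraries, 12 genes rose, where 1.88% of all genes rose: Hmgcs1, Mvk, Pmvk, Mvd, Idi1, Fdps, Sqle, Lss, Sc5d, Dhcr7, Acaca and Scd2. Without the WT library with little Krt14 alone, 15 genes rose, where 1.92% of all genes rose. Without the RE library with little Krt14 alone, 0 rose, where 0.224% of all genes rose.

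Scd2 ranged from 24.4 to 176 CPM in RE with a median of 77.2. Its highest RE time point was the fifth, with 30.4, 94.0, 176 and 76.9 CPM, and its lowest the fourth, with 43.5, 80.9, 50.1 and 24.4 CPM, so that the RE libraries spread across both other genotypes. The difference from WT was 0.56 ± 0.14 (1.48-fold; 95% interval 0.28 to 0.84; adjusted p = 0.0438). It missed the threshold without RE time point 5, replicate 3 (0.47, adjusted p = 0.0983), and with a term for the library set (adjusted p = 0.0564), and passed it without all 5 libraries (0.58, adjusted p = 0.00437). The sterol genes of smallest p in RE minus WT were Sqle (0.29 ± 0.09, adjusted p = 0.132), Hmgcs1 (0.16 ± 0.05, adjusted p = 0.142) and Dhcr7 (0.21 ± 0.07, adjusted p = 0.172).

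Directly between RE and KO, 3 of the 29 genes fell in RE and 0 rose by edgeR, where 4.86% of all genes fell and 6.79% rose. At an unadjusted p under 0.05, 12 were lower and 2, Fads1 and Scd1, higher, where 9.83% of all genes were lower and 13.8% higher. DESeq2 called 4 lower, where 988 of 18515 genes were lower, and limma-voom 8, where 1011 were. Scd2 fell by 0.72 on the log2 scale (SE 0.14; 0.608-fold; adjusted p = 0.000193), and by 0.81 without the 5 libraries. Lss ranged from 58.9 to 183 CPM in RE (median 89.5) and fell by 0.25 (SE 0.08; 0.842-fold; adjusted p = 0.0307). Sc5d ranged from 44.7 to 106 CPM in RE (median 68.7) and fell by 0.22 (SE 0.07; 0.861-fold; adjusted p = 0.0281). The highest RE values of both, 183 and 106 CPM, came from the library with little Krt14. In the other RE libraries the highest was 117 CPM for Lss and 84.2 CPM for Sc5d, below the highest KO libraries at 136 and 98.6 CPM, and the ranges overlapped.

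At the time point where Sc5d was lowest in RE, the fourth, its libraries stood at 46.3, 69.8, 44.7 and 47.5 CPM, beside the KO values of 71.1, 80.8, 79.8 and 69.3 CPM. Lss in RE was highest at time point 5, with 58.9, 94.9, 183 and 98.0 CPM, and lowest at time point 1, with 61.3, 59.8, 89.7 and 89.3 CPM. Dhcr7 in RE ranged from 59.4 to 179 CPM (median 78.1) and had a difference from KO of −0.20 ± 0.07 (adjusted p = 0.0522). Without the 5 libraries 13 genes fell in RE relative to KO, where 8.3% of all genes fell, and these were Pmvk, Mvk, Idi1, Fdps, Sqle, Lss, Msmo1, Nsdhl, Sc5d, Dhcr7, Acly, Acaca and Scd2. Leaving out the RE library with little Krt14 alone gave the same number, 13, where 6.57% of all genes fell, and leaving out that of WT gave 8, where 5.9% of all genes fell. Over the 5 time points at which all genotypes fell in the same library set, 1 gene, Scd2, fell (adjusted p = 0.00675), where 4.1% of all genes did. KO and RE shared a set at every time point, so for this comparison that fit only removed libraries and did not improve the match.

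Across the day, 8 of the 29 genes had a rhythm in WT at an adjusted p under 0.05, where 33.3% of all genes did. In KO 2 genes did, where 7.26% of all genes did, and in RE 2, where 12.7% did. With the 5 libraries left out, 9 genes had a rhythm in WT, 2 in KO and 2 in RE, where 34.4%, 8.07% and 13% of all genes did. None of these 6 counts was a larger share of the 29 genes than the share over all genes. The rhythm is a cosine with a period of 6 time points, and its size is the distance from peak to trough. The median size was 0.33 (log2) over the 29 genes in WT, 0.25 in KO and 0.29 in RE, beside 0.35, 0.22 and 0.27 over all genes. With a term for the library set, 3 genes had a rhythm in WT (Acaca, Insig1 and Fdps), where 25% of all genes did, and 0 in KO and 0 in RE, where 2.05% and 2.07% did. No difference in rhythm between genotypes passed the test for any of the 29 genes by edgeR, DESeq2 or limma-voom, where by edgeR 1.17% of all genes did between KO and WT, 0.0108% between RE and WT and 0% between RE and KO. At an unadjusted p under 0.05 the genes were Fdft1 and Insig1 between KO and WT and between RE and WT, and Insig1 between RE and KO.

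In the fit without a term for the library set, Fdft1 had the rhythm of smallest p in each genotype. In WT it stood at 12.6, 12.0, 11.7 and 12.1 CPM at time point 1 and at 6.29, 4.49, 5.07 and 5.40 CPM at time point 6. KO stood at 14.9, 13.9, 16.4 and 10.9 CPM at time point 1 and at 6.75, 6.97, 5.88 and 5.67 CPM at time point 4, and RE at 14.7, 12.9, 14.8 and 10.6 CPM and at 5.52, 6.44, 4.64 and 4.58 CPM at the same times. The high and low groups did not overlap in any genotype. The sizes were 1.04 ± 0.20 in WT (adjusted p = 0.00048), 1.09 ± 0.20 in KO (adjusted p = 0.000162) and 1.22 ± 0.20 in RE (adjusted p = 2.25e-05).

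The drop of Fdft1 fell where the library sets change in each genotype, after time point 4 in WT and after time point 3 in KO and RE. In the first set Fdft1 ranged from 8.99 to 12.6 CPM in WT, from 8.27 to 16.4 CPM in KO and from 8.42 to 15.1 CPM in RE. In the other set it ranged from 4.49 to 10.5 CPM in WT, from 5.67 to 10.5 CPM in KO and from 4.58 to 11.1 CPM in RE. Without the libraries with little Krt14, the second set reached 6.29 CPM in WT and 8.17 CPM in RE, below every library of the first set of the same genotype. With the set as a term, the rhythm of Fdft1 passed the test in none of the genotypes, and its mean difference between KO and WT passed it (0.28, adjusted p = 0.0133). Between time points of the same set, Fdft1 did not pass the edgeR test in WT (adjusted p = 0.505), KO (adjusted p = 0.647) or RE (adjusted p = 0.404). For Fdft1, time of day and library set can be told apart only in part. Fdft1 shares 774 exon bases with Ctsb, a protease gene on the opposite strand with 955693 reads in all libraries against 26403 of Fdft1.

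Insig1 was rhythmic in WT and KO and kept its call in WT with a term for the set (adjusted p = 0.00601). WT was highest at time point 4, with 30.8, 28.8, 25.7 and 19.8 CPM, and lowest at time point 1, with 12.4, 9.90, 15.4 and 16.6 CPM. KO was highest at time point 5, with 27.7, 38.9, 38.7 and 46.5 CPM, and lowest at time point 1, with 15.9, 14.6, 21.4 and 15.7 CPM. The high and low groups did not overlap in either genotype. The sizes were 0.98 ± 0.24 in WT (adjusted p = 0.0038) and 1.12 ± 0.23 in KO (adjusted p = 0.0012). In RE, Insig1 stood at 37.0, 22.9, 26.7 and 21.5 CPM at its highest, the sixth, and at 19.7, 15.99, 25.6 and 15.9 CPM at its lowest, the second, and these overlapped. The KO rhythm did not pass the test with the set as a term, and the difference in rhythm between KO and WT had an adjusted p of 0.258.

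Acaca and Scd1, at the start and near the end of fatty acid synthesis, were rhythmic in WT. Acaca stood at 186, 173, 193 and 168 CPM at time point 1 and at 149, 146, 144 and 135 CPM at time point 4 in WT, without overlap, and its size was 0.32 ± 0.09 (adjusted p = 0.00971). In KO it was highest at time point 2, with 197, 190, 193 and 199 CPM, and lowest at time point 3, with 146, 174, 203 and 172 CPM. Without the 5 libraries the difference in rhythm of Acaca between KO and WT passed the test (0.31, adjusted p = 0.0241), where 4.62% of all genes did. Acaca in RE was highest at time point 5, with 176, 176, 258 and 163 CPM, and lowest at time point 4, with 155, 190, 171 and 143 CPM.

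Scd1 (ENSMUSG00000037071, chromosome 19, 44394455 to 44407879) stood at 570, 1053, 948 and 635 CPM at time point 2 and at 464, 493, 598 and 684 CPM at time point 5 in WT. These overlapped, and the size was 0.61 ± 0.17 (adjusted p = 0.0139). In KO it stood at 688, 1067, 677 and 596 CPM at time point 1 and at 461, 541, 557 and 554 CPM at time point 5, without overlap, and its rhythm did not pass the test. RE stood at 513, 1128, 810 and 710 CPM at time point 2 and at 533, 663, 691 and 434 CPM at time point 4, with overlap.

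**Figure D5:**
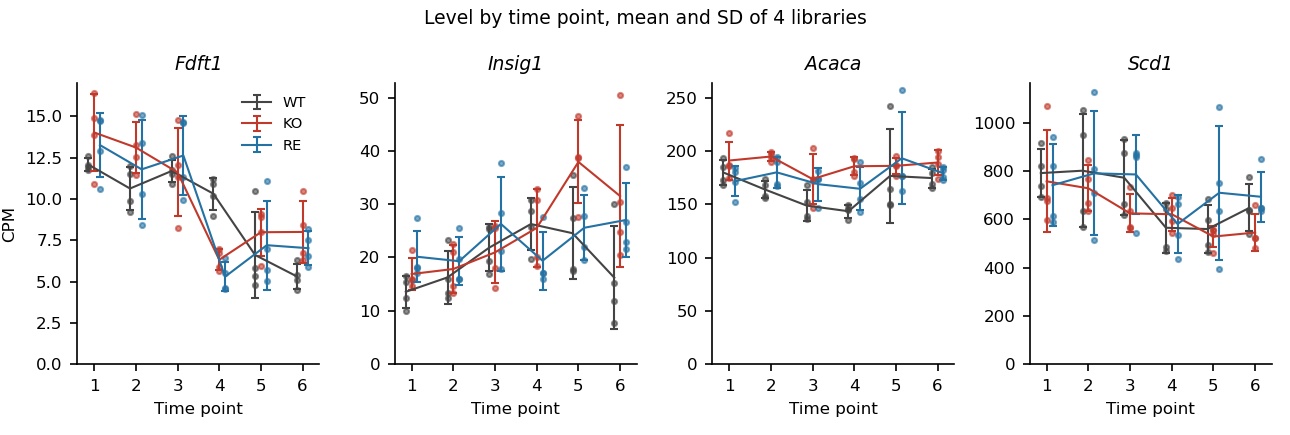
CPM of Fdft1, Insig1, Acaca and Scd1 at the 6 time points by genotype; points are libraries, and lines join the means of 4 with bars of 1 SD. Fdft1 drops after time point 4 in WT and after time point 3 in KO and RE, where the library sets change.

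The other rhythmic genes in WT were Fads2, Fdps, Pmvk and Lss. Fads2 had a size of 1.23 ± 0.37 (adjusted p = 0.0294) at a WT median of 0.51 CPM. Fdps had a size of 0.71 ± 0.22 (adjusted p = 0.0329), Pmvk 0.50 ± 0.16 (adjusted p = 0.0341) and Lss 0.50 ± 0.16 (adjusted p = 0.0425). Leaving out the WT library with little Krt14 alone took away 3 of these calls, with adjusted p-values of 0.066 for Fads2, 0.0724 for Fdps and 0.572 for Pmvk. It added 2, Sc5d (adjusted p = 0.00931) and Srebf2 (adjusted p = 0.0324), for 7 in all, where 30.2% of all genes had a rhythm. The rhythm of Lss in WT held without the 5 libraries (0.45, adjusted p = 0.0175), with 96.1, 85.4, 89.3 and 83.1 CPM at time point 3 and 60.3, 57.4, 72.8 and 65.9 CPM at time point 1.

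In RE, Ebp was the other rhythmic gene, with 35.2, 46.1, 66.1 and 42.4 CPM at time point 5 and 40.1, 36.4, 39.3 and 34.8 CPM at time point 3. These overlapped, and the value of 66.1 came from the library with little Krt14. The size was 0.31 ± 0.09 (adjusted p = 0.0371), and 0.19 without that library (adjusted p = 0.249). The call was also lost without RE time point 3, replicate 2 (adjusted p = 0.0574).

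Within a group of 4 mice, the sterol enzymes were correlated, though not in every pair. The like values for other genes were not computed, so this is not shown to be particular to these enzymes. As a description, the correlation between libraries after subtracting each group's mean had a median of 0.73 over the 136 pairs of sterol enzymes (72 libraries in groups of 4). The median was 0.48 in the first set, 0.83 in the second, and 0.53 without the 5 libraries. Single pairs ranged from 0.09 to 0.94 in all libraries and from −0.21 to 0.93 without the 5. Without the 5, the enzymes least like the mean of the others were Tm7sf2 (0.21), Ebp (0.40) and Dhcr7 (0.43). Sqle was most like the rest, with a correlation of 0.96 to the mean of the other sterol enzymes, and Hmgcs1 lay at 0.64. Of the fatty acid genes Acly lay at 0.87, Scd2 at 0.74, Scd1 at 0.47, Fads2 at 0.04 and Fads1 at −0.31. In the 67 libraries left without the 5, Sqle lay at 0.90, Hmgcs1 at 0.70, Acly at 0.66, Scd2 at 0.68, Scd1 at 0.30, Fads2 at 0.22 and Fads1 at 0.14, so that the negative value of Fads1 was not seen there.

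Further members share exon bases or sequence with another gene. Reads there may have been set aside as ambiguous or counted for the other gene. Cyp51 shares 166 bases with Akap9 and Srebf1 109 bases with Rai1, on the opposite strand in each case, and Tm7sf2 532 bases with Vps51 on the same strand. Hmgcs1 shares 557 bases with an antisense gene, and Insig1, Elovl6 and also Fdft1 each have 1 processed pseudogene of at least 95% identity.

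Other genes of sterol synthesis, isoprenoid use and electron supply, taken from a list beside the 29, did not rise as a group in KO. Of 9 tested, 1 rose (Acat2, an acetoacetyl-CoA thiolase, 0.30 ± 0.09, adjusted p = 0.00784) and 2 fell: Por, the electron donor of Cyp51 and Sqle, fell by 0.17, and Dhdds by 0.06. Over all genes, 8.72% rose and 11.1% fell in KO. Of 18 genes of SREBP control and sterol sensing, 2 rose and 3 fell, with a median difference of −0.05. Among them Insig2 rose (0.19 ± 0.05, adjusted p = 0.00206), while the sterol exporters Abcg1 and Abca1, known as targets of the sterol sensor LXR, fell by 0.25 (adjusted p = 0.0174) and by 0.32 (adjusted p = 0.0264). In RE minus KO, 1 of these 18, Insig2, fell (by 0.17, adjusted p = 0.00608), where 4.86% of all genes fell.

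Among all genes, 8.72% rose and 11.1% fell in KO, and 6.79% rose and 4.86% fell in RE minus KO. Of 28 tested genes from other steps of fatty acid and glycerolipid synthesis, 6 rose and 5 fell in KO, with a median difference of 0.00. The 3 of smallest p fell: the elongase Elovl5 by 0.58 (adjusted p = 1.33e-08), the second acetyl-CoA carboxylase Acacb by 0.60 (adjusted p = 1.21e-07), and Mlxipl, which encodes the carbohydrate-sensing factor ChREBP, by 0.76 (adjusted p = 6.64e-07). Elovl5 had medians of 48.4 CPM in WT, 32.4 CPM in KO and 46.2 CPM in RE, and Acacb of 28.7, 17.8 and 29.8 CPM. In RE minus KO, 5 of the 28 rose, led by Acacb (0.65, adjusted p = 1.68e-08), Elovl5 (0.54, adjusted p = 9.24e-08) and Gpam, the first enzyme of glycerolipid synthesis (0.38, adjusted p = 1.1e-06), and 2 fell. In RE minus WT none of the genes of these 3 lists passed the test by edgeR, and 5 were higher and 0 lower at an unadjusted p under 0.05. Acaca and Acacb, whose proteins carry out the same reaction, were thus called in opposite directions in KO.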

How the data were processed

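Per the labels' protocols, epidermis was separated from the dermis with dispase and RNA was extracted from frozen cell pellets. Per the submitters' processing notes, the authors used Trimmomatic, TopHat2 2.1.1 and HTSeq on mm10 (GRCm38). The deposited counts are whole reads per gene, and the strand setting is not given in the sources used here. Summary lines were left out of library sizes: reads in no gene made 12.8% to 20.0% and ambiguous reads 1.16% to 2.60%.

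Genes were named from GENCODE M21 (45143 of 46078 matched), and CPM were scaled with TMM factors. One edgeR 4.0.16 quasi-likelihood model (R 4.3.3), checked on simulated counts, was fitted to all 72 libraries with a mean and a cosine of period 6 time points per genotype. After filterByExpr, Benjamini-Hochberg adjustment ran over 18515 genes at a threshold of 0.05. A mean difference is that of the fitted means over the day, and its 95% interval takes the estimate as normal. Replicate numbers did not pair libraries. The closest 2 replicates differed by 13.7 times the sampling noise, so none was taken as a repeat deposit.

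The 29 genes, the other lists and the 5 libraries set apart were chosen with earlier results of these data known. Full values went to at most 4 genes of smallest p in each of 9 comparisons, or the 2 of smallest p where none passed, and 3 genes per other list and comparison could be named. Near copies (95% identity over at least 100 bases) were found with BLAST+ 2.17.0. Alternatives were other size factors, no filter or one at a mean of 5 CPM, limma-voom (limma 3.58.1), DESeq2 1.42.0, fits of 2 genotypes, time point as a factor, library set as a term or within sets, a replicate block, and fits without replicates or the 5 libraries.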

Additional observations from a re-analysis of the deposited data

Results flagged for a closer look

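In groups of 4 mice, a library was set apart here where its gap to the nearest of the other 3, divided by the range of the group, exceeded Dixon's 95% critical value for 4 samples, which chance gives in about 1 group in 20. The 10 genes given with full values have 180 such groups, and 11 were found. Acaca stood at 242 CPM in WT time point 5, replicate 4 (nearest 165), and at 258 CPM in RE time point 5, replicate 3 (nearest 176), the libraries with little Krt14. RE time point 3, replicate 2, one of the libraries at odds with its label, was low for Dhcr7 (59.4 CPM, nearest 77.6) and Scd1 (541 CPM, nearest 857). RE time point 4, replicate 2, was high for Sc5d (69.8 CPM, nearest 47.5) and Insig1 (27.5 CPM, nearest 17.1). The others were 1 gene each: Lss in WT time point 6, replicate 1 (78.8 CPM, nearest 62.8), Insig1 in RE time point 1, replicate 4 (27.3 CPM, nearest 18.1), Scd1 in RE time point 6, replicate 4 (848 CPM, nearest 646), Elovl6 in WT time point 4, replicate 2 (202 CPM, nearest 147) and Elovl6 in RE time point 2, replicate 2 (271 CPM, nearest 137).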

How the results depend on the processing

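No called result changed direction under any alternative run. Between KO and WT, where 18 of the 29 genes were called higher, the count was 17 to 19 under the other tools, filters and models, 21 without the 5 libraries, 22 with a term for the set as well, and 11 to 21 when replicates or single libraries were left out, with 11 without replicate 2 of every group, where 3.69% of all genes were higher. For RE higher than WT, where 1 gene was called, the count was 0 with no filter, with limma-voom, with the compared genotypes only, at matched time points, with a term for the set and with a replicate block, 12 without the 5 libraries, 14 with a term for the set as well, 0 to 4 without 1 replicate of every group, and 0 to 15 without single libraries, the 15 without WT time point 5, replicate 4. For RE lower than KO, where 3 were called, it was 8 with limma-voom, 5 with the compared genotypes only, 1 at matched time points, 13 without the 5 libraries, 13 with a term for the set as well, 1 to 9 without 1 replicate of every group, and 3 to 13 without single libraries, the 13 without RE time point 5, replicate 3. Rhythms in WT, 8 as reported, were 10 with time point as a factor, 9 without the 5 libraries, 5 with limma-voom, 3 within sets, 3 with a term for the set, 5 with that term once the 5 libraries were left out, 2 to 7 without 1 replicate of every group, and 7 to 9 without single libraries. In KO, 2 as reported, they were 6 with the compared genotypes only, 0 within sets, 0 with a term for the set, 1 with that term once the 5 libraries were left out, and 1 to 2 with replicates or single libraries left out. In RE, 2 as reported, they were 1 with no filter, with limma-voom and with the compared genotypes only, 0 within sets, 0 with a term for the set whether or not the 5 libraries were kept, 1 to 3 without 1 replicate of every group, and 1 to 4 without single libraries, the 4 without WT time point 5, replicate 4. A difference in rhythm between KO and WT, 0 as reported, was called for 1 gene with time point as a factor (Fdft1), 1 without the 5 libraries (Acaca) and 1 with a term for the set as well (Sc5d), and between RE and WT for 1 with time point as a factor (Fdft1); with replicates or single libraries left out it was 0 in each. With a term for the set and without the 5 libraries, 12.7% of all genes were higher in KO than in WT. In that fit 1.64% were higher in RE than in WT and 8.86% lower in RE than in KO. A rhythm was called there for 31.1% of all genes in WT, 5.06% in KO and 4.43% in RE. The causes of these changes in count were not tested.

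Same-numbered libraries of different groups had a mean correlation of deviations of 0.02 (other pairs −0.01), and 24 of 72 libraries were most like their own number, so the numbers do not pair mice. A replicate block gave 18 genes higher in KO than in WT, 0 in RE minus WT and 4 lower in RE than in KO. Over values of single genes, 1470 kept their side of the threshold, 140 came past it and 106 no longer passed. Fads2, at a median of 0.51 CPM in WT, rests on few reads.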
